A study of Homo sapiens with 6 samples.

Results

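Nucleoporins are the proteins of the nuclear pore complex, and karyopherins are the soluble receptors that carry proteins and RNA through it. Members were all genes with a numbered NUP or NUPL, importin (KPNA, KPNB, IPO), transportin (TNPO) or exportin (XPO) symbol, plus CSE1L, the exportin of importin alpha. A single exportin gene that the name pattern also takes was left out. The rule used names only and found 46 members, 23 nucleoporins and 23 karyopherins, of 17789 gene symbols. Earlier results of these data were known when the rule was chosen.

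A pore is built of stacked rings of scaffold proteins, the outer Y complex and the inner ring, which hold a central channel lined with phenylalanine-glycine repeats, filaments on the cytoplasmic face and a basket on the nuclear face. Importins bind cargo in the cytoplasm and release it when they meet the GTP-bound form of the small GTPase RAN in the nucleus, while exportins pick up cargo together with that form. Classical nuclear localisation signals are read by an importin alpha adaptor, which rides on importin beta (KPNB1) and is brought back to the cytoplasm by CSE1L. In dividing cells the pores are taken apart at mitosis and rebuilt, and new pores are added in interphase.

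RNA was sequenced from 3 FOXD3 knockdown libraries and 3 control libraries of cells labelled A549, an established line from a human lung carcinoma. Knockdown cells received a pool of siRNAs against FOXD3, a forkhead transcription factor, with Lipofectamine 2000, and the knockdown was examined at 72 h by the study. Control cells are labelled wild type, and the sources used here do not say whether they received a control siRNA or when RNA was taken. All 6 libraries come from the same line and medium. The labels do not say whether the 3 libraries of a group came from separate cultures, and the p-values below therefore reflect the spread between libraries alone, which may be technical. Values are FPKM, fragments per kilobase of transcript scaled to the mapped fragments of the library, so levels can be compared between genes. Comparisons between libraries rest on that scaling, and small changes depended on it, so results with other scalings are given below.

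FOXD3 was listed at 0, 0.0749 and 0 FPKM in the knockdown libraries, against 0.152, 0.291 and 0.134 FPKM in the control libraries. The groups did not overlap, but FOXD3 lay near the detection limit throughout, and the exact two-sided permutation p of 0.1 is the smallest that 3 against 3 allows. The files listed 15651 to 15754 symbols in knockdown libraries and 16229 to 16288 in control libraries, and a rough estimate of depth gave 6590000 to 7780000 fragments per library. Knockdown replicate 2 stood apart in small nucleolar RNAs, which held 4.82% of its FPKM total against 0.961% to 1.91% in the other 5 libraries. The 7 epithelial markers examined summed to 7615 to 7684 FPKM in knockdown libraries and 5532 to 6516 FPKM in control libraries, a sum made up mostly of the keratins KRT8, KRT18 and KRT19. Of these 7 markers 3 were called higher and 3, CDH1, CLDN4 and CLDN7, were called lower. The 7 leukocyte and blood markers, of which 6 were listed, summed to 1.56 to 2.07 FPKM in knockdown and 2.86 to 4.23 FPKM in control libraries, and the 7 fibroblast and endothelial markers to 5.01 to 5.64 FPKM in knockdown and 6.42 to 7.93 FPKM in control libraries. A549 is known to have lost CDKN2A, yet CDKN2A was listed at 128 ± 1.55 FPKM in knockdown cells and 154 ± 0.814 FPKM in control cells (SD, n = 3 each). CDKN2B and MTAP, its neighbours, which A549 is also known to lack, were at 8.41 and 12.2 FPKM in knockdown cells and at 16.1 and 10.5 FPKM in control cells. AKR1B10, an enzyme known to be abundant in A549, was at 752 ± 14.3 FPKM in knockdown cells and 391 ± 4.45 FPKM in control cells (SD, n = 3 each). The CDKN2A, CDKN2B and MTAP values go against the label, and the identity of the line was not tested, so every value below is of the cells labelled A549.

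Most nucleoporin and karyopherin genes were higher after FOXD3 knockdown. Of the 45 members that passed the filter of a mean of 0.5 FPKM, 32 were higher in knockdown, 5 were lower and 8 were not called (limma, Benjamini-Hochberg adjusted p under 0.05 over 13340 genes). The same test called 63.5% of all genes, 25.6% higher and 37.9% lower, so the share of members called higher, 71.1%, was above the background and the share called lower, 11.1%, was below it. Among genes averaging 5 FPKM or more, the range in which most members lie, 32.2% were called higher and 35.6% lower. The median log2 change was 0.32 over the members and -0.087 over all genes tested. With each library scaled to its median gene the counts were 35 higher and 2 lower, the members' median was 0.43 and that of all genes 0.022, with 34% of all genes called higher and 29.6% lower. With quantile normalization the counts were 34 and 5, beside 32.3% and 29.3% of all genes. Members together made up 0.292% to 0.302% of the FPKM total in knockdown libraries and 0.209% to 0.222% in control libraries, and the groups did not overlap. In 34 members every knockdown library lay above every control library, where 28.3% of all genes did so, and in 5 members every knockdown library lay below, where 40.8% of all genes did so. The remaining member, NUP210L, a paralog expressed mainly in testis, was listed at 0.0256 FPKM in 1 knockdown library and 0.0265 FPKM in 1 control library and was not tested. Because whole cultures were measured, more cells of a kind and more RNA per cell cannot be told apart in any of these values.

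**Figure D1:**
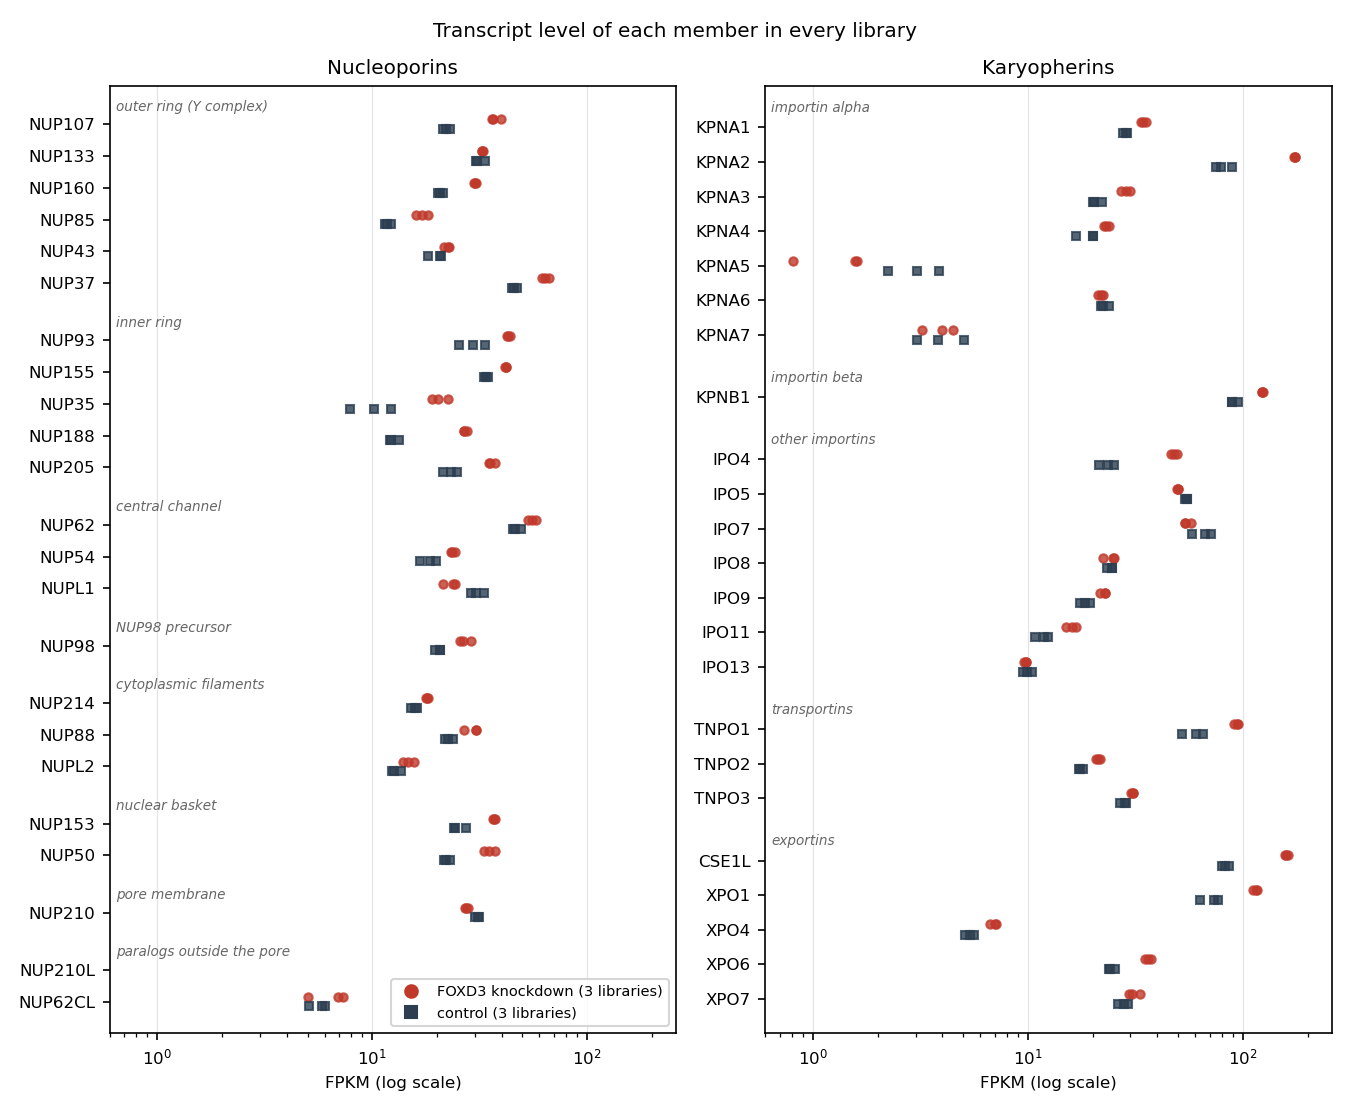
Transcript level of each member in the 3 FOXD3 knockdown libraries (circles) and 3 control libraries (squares), in FPKM on a log axis, with members grouped by their place in the pore or their class of receptor. KPNA2, CSE1L, KPNB1 and XPO1 were the most abundant members; NUP210L, below 0.03 FPKM in every library, has no points on this axis.

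**Figure D2:**
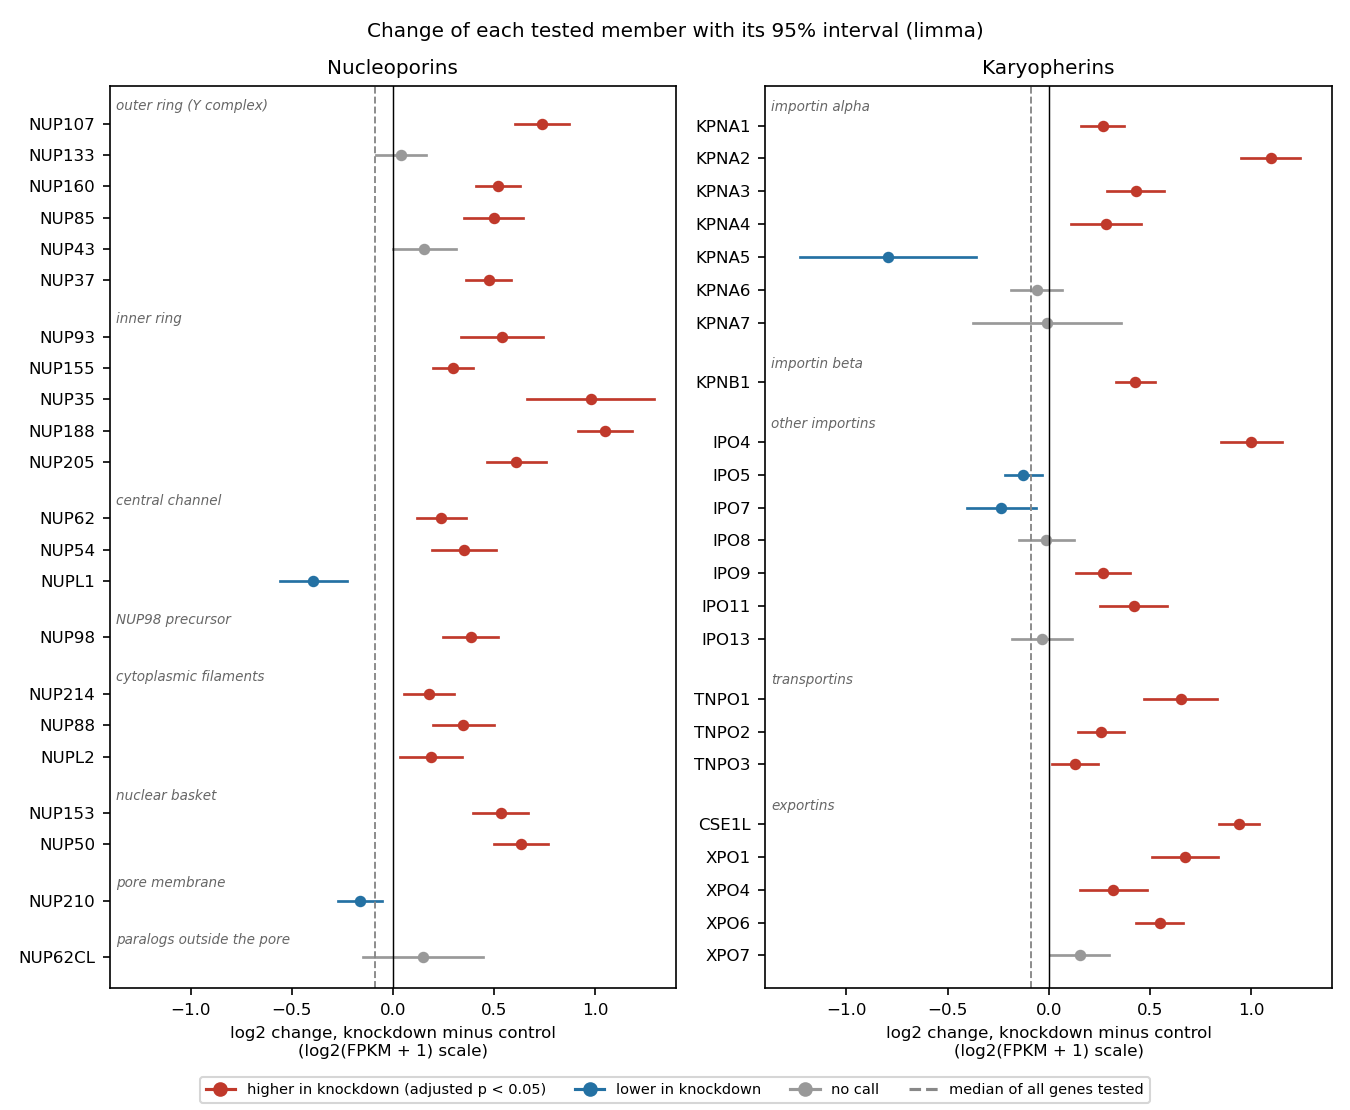
Log2 change (knockdown minus control, of log2(FPKM + 1)) of each tested member, with the 95% confidence interval from limma; the colour gives the call and the dashed line the median of all genes tested (-0.087). All 5 inner ring genes and all 3 transportins lie right of 0, and KPNA5, NUPL1, IPO7, NUP210 and IPO5 are the 5 members called lower.

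The authors' deposited table of the same comparison made fewer calls on the members, none of them lower. It lists 45 members, of which 15 were higher and 0 lower at a false discovery rate under 0.05, against 10.9% higher and 11.2% lower of its 12275 genes. All 15 were also called higher by limma, and 40 of the 45 had a positive log2 fold change in the authors' deposited table. The median log2 fold change there was 0.44 over the members and 0.027 over all its genes. At least 2-fold changes at a false discovery rate under 0.01 were given in the authors' deposited table for 5 members: NUP188, KPNA2, IPO4, NUP35 and CSE1L, with log2 fold changes of 1.22, 1.20, 1.18, 1.13 and 1.02.

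Those 5 genes were also the members with the largest rises by limma, and their promoters are shown here with that of NUPL1, the most reduced member above 5 FPKM, for contrast. Sequences are RefSeq promoters on GRCh38.p14, from 250 bases before to 50 bases after the gene start, 5′ to 3′ on the gene's strand. The KPNA2 promoter lies at chr17:68035485-68035784 on the forward strand, that of NUP188 at chr9:128947449-128947748 on the forward strand and that of IPO4 at chr14:24188767-24189066 on the reverse strand. The NUP35 promoter lies at chr2:183124193-183124492, that of CSE1L at chr20:49046062-49046361 and that of NUPL1, named NUP58 in RefSeq, at chr13:25301375-25301674, all 3 on the forward strand. Capitals mark exact matches, on either strand, to 3 short motifs: CCAAT (the CCAAT box, bound by NF-Y), TTTGAA (the core of the cell cycle homology region of many late cell cycle genes) and CACGTG (the E-box, bound by MYC and related factors).
KPNA2: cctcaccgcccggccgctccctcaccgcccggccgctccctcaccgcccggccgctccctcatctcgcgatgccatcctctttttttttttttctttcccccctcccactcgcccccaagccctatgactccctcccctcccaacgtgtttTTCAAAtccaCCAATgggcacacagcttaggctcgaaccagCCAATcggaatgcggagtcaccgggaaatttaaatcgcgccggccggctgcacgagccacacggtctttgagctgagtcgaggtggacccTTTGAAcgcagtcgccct
NUP188: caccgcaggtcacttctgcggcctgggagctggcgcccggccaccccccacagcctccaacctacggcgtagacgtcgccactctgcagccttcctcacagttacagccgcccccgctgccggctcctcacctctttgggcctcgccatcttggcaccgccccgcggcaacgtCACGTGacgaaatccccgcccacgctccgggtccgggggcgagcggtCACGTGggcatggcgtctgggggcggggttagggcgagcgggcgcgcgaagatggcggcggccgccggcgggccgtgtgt
IPO4: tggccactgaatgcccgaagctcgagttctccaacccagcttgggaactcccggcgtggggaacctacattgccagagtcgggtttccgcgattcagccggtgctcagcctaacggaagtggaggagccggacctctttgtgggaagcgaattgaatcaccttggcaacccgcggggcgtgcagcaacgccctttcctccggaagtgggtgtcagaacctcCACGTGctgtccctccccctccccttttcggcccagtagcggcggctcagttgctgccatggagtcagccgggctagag
NUP35: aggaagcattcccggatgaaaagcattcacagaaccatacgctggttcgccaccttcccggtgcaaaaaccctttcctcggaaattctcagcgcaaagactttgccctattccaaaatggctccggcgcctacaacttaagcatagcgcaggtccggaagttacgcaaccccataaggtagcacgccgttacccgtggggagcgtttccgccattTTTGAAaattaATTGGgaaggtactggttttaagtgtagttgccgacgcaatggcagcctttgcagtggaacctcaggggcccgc
CSE1L: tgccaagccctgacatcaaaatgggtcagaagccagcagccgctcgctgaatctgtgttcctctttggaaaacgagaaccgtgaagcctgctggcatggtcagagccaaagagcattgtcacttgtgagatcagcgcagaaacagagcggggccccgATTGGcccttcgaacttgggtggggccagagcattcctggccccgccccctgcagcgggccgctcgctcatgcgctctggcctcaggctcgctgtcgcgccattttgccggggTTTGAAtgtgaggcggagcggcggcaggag
NUPL1: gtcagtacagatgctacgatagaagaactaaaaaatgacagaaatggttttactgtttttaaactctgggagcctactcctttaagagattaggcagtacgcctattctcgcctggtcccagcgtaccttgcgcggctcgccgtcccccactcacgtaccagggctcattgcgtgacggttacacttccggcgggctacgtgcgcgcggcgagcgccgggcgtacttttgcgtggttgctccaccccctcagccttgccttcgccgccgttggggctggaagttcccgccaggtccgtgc

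KPNA2 held CCAAT starting 89 and 58 bases before the gene start, with TTTGAA on the other strand at -99 and on the gene's strand at 33. CSE1L and NUP35 each held 1 CCAAT, on the other strand, and 1 TTTGAA. NUP188 held CACGTG at -77 and -30, IPO4 held CACGTG at -29, and NUPL1 held none of the 3 motifs. RefSeq promoters were matched for 40 of the 46 members, by gene identifier. The tested genes were matched by symbol, which found 9249 of 13340, and 2509 of the 3417 called higher. Shares of tested genes below cover these matched genes only. CCAAT was present in 18 of the 30 matched members called higher, 1 of the 4 called lower and 2 of the 5 not called. The share among members called higher, 60%, stands beside 35.7% of all 27305 promoters, 36.7% of those of tested genes and 42.9% of those of tested genes called higher. TTTGAA was in 8 of the 30 called higher (26.7%), 1 of the 4 called lower (25%) and 0 of the 5 not called, beside 15.4% of all promoters, 9.37% of those of tested genes and 12% of those of tested genes called higher. CACGTG was in 5 of the 30 called higher (16.7%), 1 of the 4 called lower (25%) and 0 of the 5 not called, beside 7.43%, 10.1% and 11.9% of the same 3 sets of promoters. The counts of these 3 motifs are small, above all those among the 4 called lower and the 5 not called. No difference between shares was tested. The forkhead core TGTTTAC was searched on both strands because FOXD3 is a forkhead factor. It was in 0 of the 30 called higher, 0 of the 4 called lower and 1 of the 5 not called (IPO8). It was in 3.41% of all promoters, 2.3% of those of tested genes and 1.87% of those of tested genes called higher. With shares this low, a count of 0 among 30 says little, and binding by FOXD3 was not tested. No 2 matches overlap in the sequences printed, and a match describes the letters in this window only.

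The outer ring, or Y complex, is the scaffold that docks early when pores re-form. Of its 6 members, 4 were higher in knockdown and 2 were not called. NUP107, which gives the complex its name together with NUP160, had 36.0, 36.5 and 39.9 FPKM in knockdown libraries, against 22.9, 22.1 and 21.3 FPKM in control libraries. Every knockdown library was above every control library, and NUP107 rose by 0.74 on the log2 scale (SE 0.058, limma adjusted p = 1.8e-05). NUP160, NUP85 and NUP37, further subunits of the same complex, rose by 0.52, 0.50 and 0.47 on the log2 scale. NUP133, their partner at the tip of the Y, had 32.8, 32.4 and 32.3 FPKM in knockdown libraries, against 30.5, 33.6 and 30.8 FPKM in control libraries. The NUP133 groups overlapped, with a log2 difference of 0.04 (95% interval -0.082 to 0.16, limma adjusted p = 0.53), and NUP133 was called higher with median scaling (0.17, limma adjusted p = 0.019). NUP43, a peripheral subunit, did not overlap between groups but missed the threshold at 0.16 (limma adjusted p = 0.072), and was called higher with median scaling and with quantile normalization. The ratio of NUP107 to NUP133 within a library, which no scaling of the library can alter, was 1.15 ± 0.0711 in knockdown and 0.700 ± 0.0476 in control libraries (SD, n = 3 each).

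The inner ring anchors the channel to the pore membrane, and all 5 of its members were higher in knockdown. NUP188, a large scaffold protein that binds NUP93 (chr9:131709977-131769374 on hg19), had 26.7, 27.6 and 26.8 FPKM in knockdown libraries, against 13.4, 12.1 and 12.2 FPKM in control libraries. That was 2.15-fold higher, with no overlap and little spread in either group (log2 change 1.05, SE 0.058, limma adjusted p = 3.58e-06). Its paralog NUP205, which takes the equivalent place in other copies of the ring, had 37.1, 35.0 and 35.4 FPKM in knockdown libraries, against 24.8, 21.4 and 23.3 FPKM in control libraries. NUP205 was also higher in all knockdown libraries but by less, 1.55-fold (log2 change 0.61, SE 0.063, limma adjusted p = 7.41e-05). The ratio of NUP188 to NUP205 was 0.755 ± 0.0350 in knockdown and 0.543 ± 0.0222 in control libraries (SD, n = 3 each), so NUP188 was the less abundant transcript in both groups. NUP35, which tethers the ring to the membrane and to NUP155 (chr2:183989083-184026408 on hg19), had 22.5, 20.3 and 19.0 FPKM in knockdown libraries, against 7.88, 12.2 and 10.2 FPKM in control libraries. Control libraries ranged more widely than knockdown libraries for NUP35, and the groups did not overlap (log2 change 0.98, SE 0.14, limma adjusted p = 0.000387). NUP93, the hub to which NUP188 and NUP205 bind, and NUP155, which contacts both rings, rose by 0.54 and 0.30 on the log2 scale.

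In the central channel the transcripts of a single complex moved in opposite directions. NUP62, NUP54 and NUPL1 (also called NUP58) form the phenylalanine-glycine trimer of the channel, and NUP62 and NUP54 were higher in knockdown while NUPL1 was lower. NUPL1 (chr13:25875666-25916561 on hg19) had 21.4, 24.3 and 23.9 FPKM in knockdown libraries, against 28.8, 33.2 and 30.4 FPKM in control libraries. All knockdown libraries were below all control libraries, a fall of 0.39 on the log2 scale (SE 0.072, limma adjusted p = 0.00164). NUP62 had 57.8, 53.0 and 55.6 FPKM in knockdown libraries and 45.3, 49.2 and 46.1 FPKM in control libraries, and rose by 0.24 on the log2 scale. NUP54 rose by 0.35. In the authors' deposited table NUPL1, NUP62 and NUP54 were not called (false discovery rates 0.31, 0.32 and 0.13). Their log2 fold changes there were -0.32, 0.38 and 0.48. NUPL1 made up 22.7% ± 1.83 of the summed FPKM of the 3 genes in knockdown libraries and 32.04% ± 0.383 in control libraries (SD, n = 3 each). The ratio of NUPL1 to NUP62 was 0.419 ± 0.0453 in knockdown and 0.657 ± 0.0191 in control libraries, with every knockdown library lower. The NUP62 locus overlaps those of ATF5 and IL4I1 in the authors' table, and without a stated strand setting reads from shared stretches cannot be told apart.

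Among the members, both basket genes and all 3 genes of the cytoplasmic filaments were higher, and the membrane gene NUP210 was lower. These parts also hold genes outside the name pattern. The basket gene TPR was not called. The filament gene RANBP2 and the membrane genes TMEM48 and POM121 were higher, and POM121C was not called. On the nuclear side, NUP50, which helps to release cargo from importin alpha, had 34.9, 37.2 and 33.1 FPKM in knockdown libraries, against 23.0, 21.6 and 22.0 FPKM in control libraries. The groups were far apart, and NUP50 rose by 0.63 on the log2 scale (SE 0.058, limma adjusted p = 3.97e-05). NUP153, which anchors the basket and binds importins, rose by 0.53. On the cytoplasmic side, NUP88, the partner of NUP214, rose by 0.35, NUPL2, a partner of the mRNA export factor GLE1, by 0.19, and NUP214, a docking site for exportin 1 complexes, by 0.18 on the log2 scale. NUP214 lost its call without knockdown replicate 1 or 2 or control replicate 3, and NUPL2 without those or control replicate 1. NUP98, whose precursor is cleaved into a channel protein and the Y complex subunit NUP96, rose by 0.38. NUP210, a glycoprotein that spans the pore membrane, was at 27.8, 27.3 and 27.1 FPKM in knockdown libraries and 31.6, 30.0 and 31.0 FPKM in control libraries. These narrow groups did not overlap, and NUP210 fell by 0.16 (SE 0.047, limma adjusted p = 0.015), but it was not called with median scaling (-0.036) or without knockdown replicate 3. NUP62CL, a shorter relative of NUP62, had 5.04 to 7.32 FPKM in knockdown and 5.08 to 6.01 FPKM in control libraries, and was called only with quantile normalization and without knockdown replicate 3.

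Among the importin alpha genes, the adaptors that read nuclear localisation signals, the most abundant had the largest rise. KPNA2 (chr17:66031848-66042970 on hg19) had 175, 175 and 173 FPKM in knockdown libraries, against 89.5, 79.3 and 75.1 FPKM in control libraries. It was the most abundant member over the 6 libraries, its knockdown values were within a few FPKM of each other, and it was 2.15-fold higher (log2 change 1.10, SE 0.063, limma adjusted p = 4.1e-06). KPNA7, its closest relative, known for its role in oocytes and early embryos, had 4.48, 3.21 and 3.98 FPKM in knockdown libraries and 5.02, 3.79 and 3.04 FPKM in control libraries. The KPNA7 groups overlapped and no difference was detected (log2 difference -0.0071, 95% interval -0.37 to 0.36).

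The pair KPNA3 and KPNA4, a subfamily of their own, were both higher. KPNA3 had 27.1, 29.8 and 28.5 FPKM in knockdown libraries, against 20.1, 22.2 and 20.3 FPKM in control libraries, and rose by 0.43 on the log2 scale (SE 0.061). KPNA4 had 23.1, 22.6 and 23.9 FPKM in knockdown libraries, against 16.8, 19.99 and 20.03 FPKM in control libraries, and rose by 0.28 (SE 0.075). Neither pair of groups overlapped. The 3 genes of the remaining subfamily differed in direction. KPNA1 had 34.1, 33.6 and 35.3 FPKM in knockdown libraries, against 28.8, 27.8 and 28.5 FPKM in control libraries, and rose by 0.27 (SE 0.046, limma adjusted p = 0.00127). KPNA6 had 21.1, 22.3 and 21.9 FPKM in knockdown libraries, against 23.8, 22.4 and 21.9 FPKM in control libraries. KPNA6 overlapped between groups, and its log2 difference of -0.059 (95% interval -0.18 to 0.066) changed sign with median scaling (0.068). KPNA5 (chr6:117002367-117063030 on hg19), the rarest of the 7, had 0.810, 1.61 and 1.57 FPKM in knockdown libraries, against 2.24, 3.84 and 3.04 FPKM in control libraries. All knockdown libraries were lower, 2.28-fold by the means, and KPNA5 fell by 0.79 on the log2 scale, where the added 1 FPKM shrinks changes of weakly expressed genes (SE 0.19, limma adjusted p = 0.00639).

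The make-up of the importin alpha transcripts differed between the groups. KPNA2 held 61.2%, 60.8% and 60.1% of the summed importin alpha FPKM in the knockdown libraries, against 48.0%, 44.2% and 43.6% in the control libraries. KPNA6 held 7.57% ± 0.179 in knockdown and 12.7% ± 0.153 in control libraries, and KPNA5 held 0.462% ± 0.155 in knockdown and 1.70% ± 0.473 in control libraries (SD, n = 3 each). The groups of libraries did not overlap for these 3 shares. The sum itself was 286 to 289 FPKM in knockdown and 172 to 186 FPKM in control libraries.

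**Figure D3:**
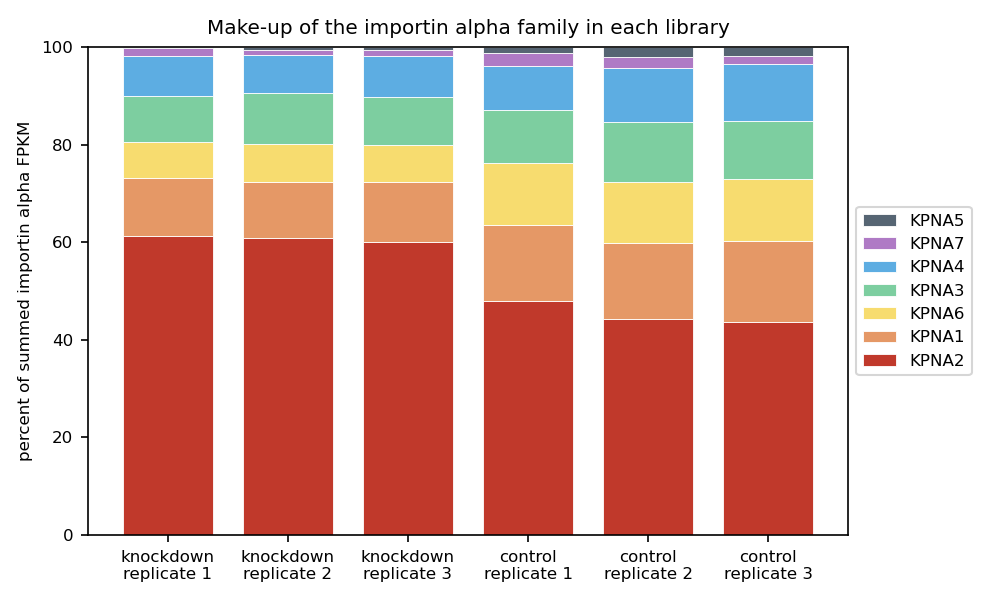
Share of each of the 7 importin alpha genes in the summed importin alpha FPKM, in percent, for each of the 3 knockdown and 3 control libraries. KPNA2 took 60.1% to 61.2% in knockdown libraries and 43.6% to 48.0% in control libraries.

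The receptors that work with the importin alpha proteins were higher too. KPNB1, importin beta, had 122, 124 and 123 FPKM in knockdown libraries, against 89.1, 95.2 and 89.4 FPKM in control libraries, and rose by 0.43 on the log2 scale (SE 0.042, limma adjusted p = 5.38e-05). The ratio of KPNA2 to KPNB1 was 1.42 ± 0.00999 in knockdown and 0.892 ± 0.0964 in control libraries (SD, n = 3 each), so the adaptor rose more than its carrier. CSE1L (chr20:47662838-47713486 on hg19), which returns importin alpha to the cytoplasm, had 158, 159 and 162 FPKM in knockdown libraries, against 82.6, 85.9 and 79.7 FPKM in control libraries. CSE1L was 1.93-fold higher with a small spread in both groups (log2 change 0.94, SE 0.042, limma adjusted p = 1.41e-06), the lowest adjusted p among the members. The ratio of KPNA2 to CSE1L was 1.09 ± 0.0219 in knockdown and 0.983 ± 0.0872 in control libraries (SD, n = 3 each), and its groups overlapped.

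The importins that bind cargo directly had mixed directions, with 3 of 7 higher, 2 lower and 2 not called. Their shares, 42.9% higher and 28.6% lower, were near those of all genes averaging 5 FPKM or more, 32.2% and 35.6%. IPO4 (chr14:24649425-24658124 on hg19), which carries histones and ribosomal proteins, had 49.6, 47.6 and 46.2 FPKM in knockdown libraries, against 25.1, 23.7 and 21.4 FPKM in control libraries. IPO4 was 2.04-fold higher with no overlap (log2 change 1.00, SE 0.065, limma adjusted p = 7.23e-06). IPO11, a carrier of ubiquitin-conjugating enzymes, and IPO9, a carrier of histones, rose by 0.42 and 0.27 on the log2 scale. IPO7, which imports ribosomal proteins and, with KPNB1, linker histone, had 53.8, 53.8 and 57.4 FPKM in knockdown libraries, against 57.8, 70.8 and 66.6 FPKM in control libraries. The IPO7 groups nearly touched, and its fall of 0.23 (SE 0.074, limma adjusted p = 0.024) was not called with median scaling or without knockdown replicate 1 or 2 or control replicate 2 or 3. IPO5, another importer of ribosomal proteins and histones, had 50.1, 50.1 and 49.3 FPKM in knockdown libraries, against 54.7, 54.9 and 53.7 FPKM in control libraries. IPO5 fell by 0.12 (SE 0.040, limma adjusted p = 0.025) with non-overlapping groups, but its log2 change was 0.0051 with median scaling, so its direction rests on the scaling. The IPO5 call was also lost without the variance trend and without any knockdown library or control replicate 2. IPO8, the closest relative of IPO7, had 25.1, 22.4 and 24.8 FPKM in knockdown libraries and 24.6, 24.7 and 23.4 FPKM in control libraries, which overlapped (log2 difference -0.011, 95% interval -0.15 to 0.13). IPO13, which carries cargo both ways, had 9.55 to 9.76 FPKM in knockdown libraries and 9.47 to 10.5 FPKM in control libraries and was not called.

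All 3 transportins were higher. TNPO1, the importer of hnRNP proteins, had 94.3, 91.0 and 94.5 FPKM in knockdown libraries, against 51.9, 65.2 and 60.7 FPKM in control libraries. The control libraries spread more widely and still lay below every knockdown library (log2 change 0.65, SE 0.078, limma adjusted p = 0.000158). Its paralog TNPO2 rose by 0.26, and TNPO3, which carries serine-arginine splicing factors, by 0.13 (limma adjusted p = 0.048). TNPO3 lost its call in 8 of the 14 alternatives, among them leaving out any single library.

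Of the 5 exportins among the members, 4 were higher, CSE1L among them. XPOT, an exportin outside the name pattern, was called lower, a call lost with median scaling. XPO1, the general exporter of proteins with leucine-rich export signals, had 115, 111 and 116 FPKM in knockdown libraries, against 63.4, 77.0 and 73.7 FPKM in control libraries. XPO1 was 1.598-fold higher, and control replicate 1 was the lowest library (log2 change 0.67, SE 0.070, limma adjusted p = 7.72e-05). XPO6, the exporter of actin, rose by 0.55, and XPO4, which exports the translation factor eIF5A, by 0.32 on the log2 scale. XPO7 had 29.4, 33.2 and 30.5 FPKM in knockdown libraries, against 29.3, 26.3 and 27.9 FPKM in control libraries. The XPO7 groups barely separated, and its log2 difference of 0.15 (95% interval 0.0044 to 0.30) missed the threshold (limma adjusted p = 0.068) but passed it with median scaling and without control replicate 1.

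Other genes of the pathway were taken from lists of pore, RAN cycle, receptor, messenger RNA export and envelope genes. The counts of these lists stand beside 25.6% higher and 37.9% lower of all genes tested. Among genes averaging 5 FPKM or more the shares were 32.2% and 35.6%. Of 10 further pore genes outside the name pattern, 7 were higher, 0 lower and 3 not called, with a median log2 change of 0.38. TMEM48, the transmembrane nucleoporin also called NDC1, averaged 60.8 ± 0.871 FPKM in knockdown and 30.4 ± 1.53 FPKM in control libraries (SD, n = 3 each), a 2.00-fold rise. SEH1L, a Y complex subunit, rose 1.89-fold, and AHCTF1, which seeds pores on chromatin, rose 1.59-fold. TPR, AAAS and POM121C were not called. POM121 and POM121C are near-identical copies, so reads may have been divided between them.

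Of the 7 genes of the RAN cycle, which gives transport its direction, 6 were higher and 1 was lower, with a median log2 change of 0.34. The count called higher was 5 in some alternatives, among them quantile normalization and moderation without the variance trend. RAN averaged 759 ± 6.87 FPKM in knockdown and 477 ± 14.5 FPKM in control libraries (SD, n = 3 each), a log2 rise of 0.67 (SE 0.037, limma adjusted p = 3.58e-06). RANBP1, which helps RAN hydrolyse GTP, rose 1.89-fold, and RCC1, the chromatin-bound exchange factor that loads RAN with GTP, rose 1.46-fold. RANGRF, a small RAN-binding protein, fell by 0.27 on the log2 scale, but was not called with median scaling, quantile normalization or no filter, nor without knockdown replicate 2 or 3 or control replicate 2 or 3. Of 4 other receptors, 0 were higher and XPOT, the exporter of transfer RNA, was lower by 0.19 on the log2 scale, a call lost with median scaling, without the variance trend and without any knockdown library or control replicate 2 or 3. RANBP6, RANBP17 and SNUPN were not called.

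Genes of messenger RNA export were called higher in 13 of 20 cases and lower in 3, with a median log2 change of 0.30. THOC4, the adaptor also called ALYREF, averaged 120 ± 9.35 FPKM in knockdown and 45.4 ± 5.69 FPKM in control libraries (SD, n = 3 each), a 2.63-fold rise, and the helicase DDX39A rose 2.47-fold. THOC6, a subunit of the THO complex, was lower, at 14.5 ± 2.16 FPKM in knockdown and 23.1 ± 2.02 FPKM in control libraries (SD, n = 3 each). Of 13 tested genes of the nuclear envelope and lamina, 8 were higher and 2 lower, with a median of 0.30. LMNB1, lamin B1, averaged 70.8 ± 1.47 FPKM in knockdown and 28.96 ± 1.38 FPKM in control libraries (SD, n = 3 each), a 2.45-fold rise, and TMPO, a lamina-associated protein, rose 1.84-fold. SUN1, which links the lamina to the outer membrane, was lower, at 25.6 ± 1.09 FPKM in knockdown and 38.4 ± 0.757 FPKM in control libraries (SD, n = 3 each).

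Proliferation genes moved with the members. All 20 of a list of cell cycle and replication genes were higher in knockdown, with a median log2 change of 0.89 and a summed level of 1698 to 1723 FPKM in knockdown and 905 to 969 FPKM in control libraries. CCNB1, cyclin B1, was 2.46-fold higher, CDC20, which switches on the ubiquitin ligase of anaphase, 2.76-fold and MCM4, a subunit of the replicative helicase, 2.16-fold. Over all genes tested, 25.6% were called higher. The list was chosen with earlier results of these data known, so its count only describes these libraries. The part of the proliferation genes in the members' changes was not tested. The members' sum rose 1.37-fold, that of the proliferation genes 1.84-fold.

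**Figure D4:**
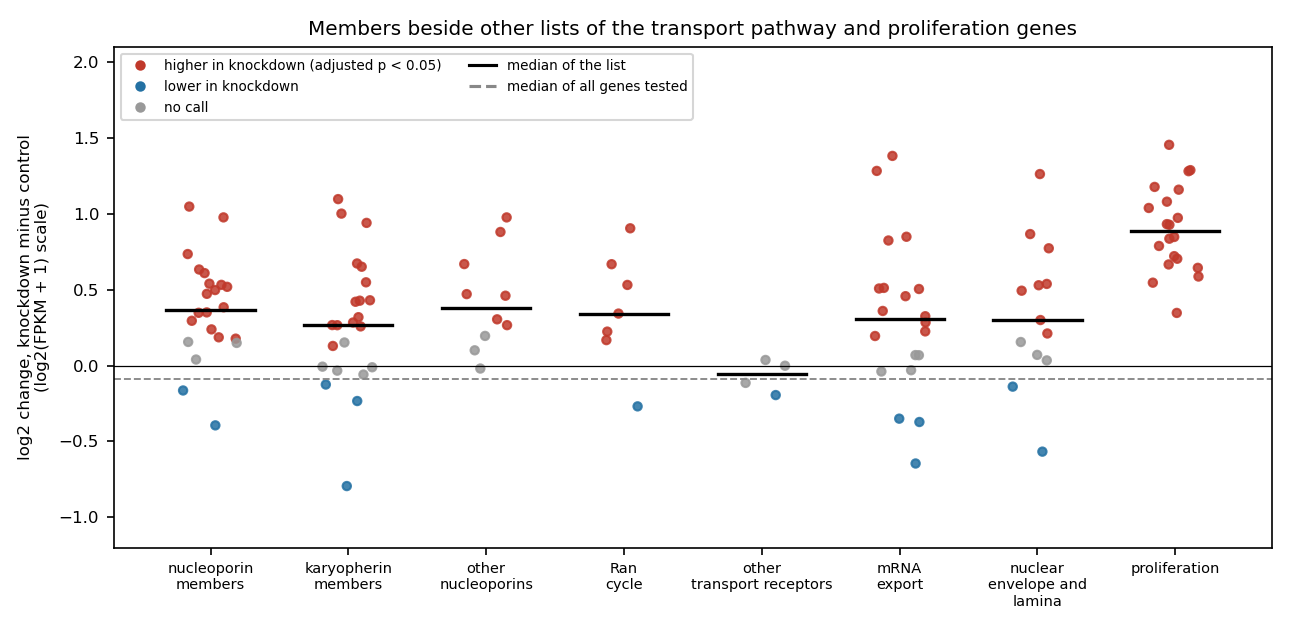
Log2 change (knockdown minus control, of log2(FPKM + 1)) of every tested gene, for the 22 nucleoporin and 23 karyopherin members and for 6 other lists. Black bars mark the list medians, 0.37 for nucleoporins, 0.27 for karyopherins and 0.89 for proliferation genes, and the dashed line marks the median of all genes tested.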

How the data were processed

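RNA-seq of 3 FOXD3 knockdown and 3 control libraries of cells labelled A549 was read from a table per library; groups follow the labels' genotype, and replicates were numbered in accession order. The authors deposited FPKM values, per the file headers, with symbol, locus (hg19) and gene ontology terms. TopHat2 2.0.12, Bowtie, Cufflinks 2.0.2 and Cuffdiff are named in the submitters' processing notes without a role; of read length, strand setting, annotation and counting the sources used here say nothing. FPKM was summed per symbol, and a symbol not listed in a library was set to 0, although the estimate may only have failed. A second table that the authors deposited gives, for each gene, their log2 fold change (knockdown over control), p-value and false discovery rate.

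Genes averaging 0.5 FPKM or more were tested, two-sided, on log2(FPKM + 1) in R 4.3.3 with limma 3.58.1 (linear model, moderated by eBayes along a mean-variance trend), calling a gene at a Benjamini-Hochberg adjusted p under 0.05 over 13340 genes, with no covariate, since the labels give no batch or pairing. The procedure was tested on simulated data. FOXD3 was tested by exact permutation. The files hold no counts; depth was estimated from the FPKM of a single fragment in 7 to 10 intronless genes of at least 2000 bp per library, within a window of 5000000 to 11100000 fragments set after values had been seen, so it is rough. Pearson r of log2(FPKM + 1) between libraries was 0.984 to 0.989 within groups and 0.960 to 0.967 between groups. The loci of 7 members (IPO11, IPO4, IPO7, NUP188, NUP62, NUP88 and NUP98) overlap another listed symbol, and KPNA2 has processed pseudogenes, so those values depend on how reads were assigned.

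Per-library values are given for the 10 members that rose most and the 10 that fell most, of those called, averaging at least 5 FPKM and without overlap (4 such members fell), every importin alpha, KPNB1, XPO1, CSE1L and the most abundant uncalled member of each role; NUP62 was added after its values were seen. Members and lists were chosen with earlier results of these data known. Alternatives were other pseudocounts (0.1, 0.5), no filter or a filter at 5 FPKM, scaling to the median, quantile normalization, the moderation without its trend or in robust form, and leaving out each library. Promoters come from RefSeq (GRCh38.p14).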

Additional observations from a re-analysis of the deposited data

How the results depend on the processing

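The number of members called higher was 29 to 35 over the 14 alternatives (32 as reported; 29 to 32 leaving out a single library), and the number called lower was 2 with median scaling, 3 to 5 leaving out a single library and 4 or 5 otherwise. Of the members called higher, 29 of 32 kept their call under every alternative that tested them; NUP214, NUPL2 and TNPO3 did not. KPNA5 and NUPL1 kept theirs among the 5 called lower. Median scaling turned the sign of the median of all genes (0.022) and of KPNA6 (0.068), KPNA7 (0.097), IPO5 (0.0051), IPO8 (0.12) and IPO13 (0.087), none of them called there. Quantile normalization turned that of all genes (0.025), KPNA7 (0.23), IPO8 (0.0032) and IPO13 (0.050). Leaving out a single library turned the sign of 3 uncalled members: KPNA7 ranged from -0.14 to 0.14 (positive without knockdown replicate 2 or control replicate 1), IPO8 from -0.040 to 0.038 (positive without knockdown replicate 2 or control replicate 1 or 2) and IPO13 from -0.065 to 0.0010 (positive without control replicate 2). The cause was not tested. The FOXD3 difference in mean FPKM was -0.167, and -0.196 to -0.118 leaving out a single library. No paired analysis was possible because the labels carry no replicate numbers. With 3 libraries a group and no counts, the precision of single values is unknown, and small changes depend on the scaling: with median scaling NUP210 was at -0.036 in place of -0.16, and IPO5 at 0.0051 in place of -0.12.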

Other observations

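The gene ontology terms that the members carry in the deposited files name transport and other processes. Of the 46 members, 35 carried the term nuclear pore (70 symbols in all), 7 kinetochore (60 symbols) and 8 mitotic prometaphase (83 symbols). More members carried other terms, among them cytokine-mediated signaling pathway (28 members, 190 symbols), viral reproduction (24, 321 symbols) and carbohydrate metabolic process (21, 284 symbols). Transport terms were also common, among them glucose transport (21 members, 53 symbols), protein transport (19, 357 symbols) and mRNA transport (19, 50 symbols). A term is an annotation of the gene and no measure of its role in these cells. The Y complex is known to sit at kinetochores in mitosis.

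The spread between libraries of a group was taken for the members only, so no value over all genes stands beside it. The members' median coefficient of variation was 3.05% over knockdown libraries and 5.07% over control libraries. It was widest for the weakly expressed KPNA5, at 33.9% and 26.3%. Among the control libraries, replicate 3 was the lowest for 21 of the 45 tested members and the highest for 4, replicate 2 the lowest for 8 and the highest for 22, and replicate 1 the lowest for 16 and the highest for 19.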
